A study of Canis lupus familiaris with 6 samples.

Results

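Small heat shock proteins, their co-chaperone BAG3, their transcription factor HSF1 and the secreted chaperone clusterin were followed in the dog tumour line HU-HSA-2. Hemangiosarcoma, its tumour of origin, is a cancer of the cells that line blood vessels. The group was set by name as 9 symbols (HSPB1, CRYAB, HSPB2, HSPB6, HSPB8, HSPB11, BAG3, HSF1 and CLU), and 8 of them had a row among the 20500 rows of the deposited table. HSPB11 had no row under that name and is not analysed here. The 6 polyA RNA libraries were 3 controls and 3 libraries of cells given (R)-GNE-140, a small-molecule inhibitor of lactate dehydrogenase, which turns pyruvate into lactate and back. Per the labels, the cells received either DMSO, the solvent, or the compound for 72 hours in medium with serum. The dose is not given in the sources used here. All libraries come from 1 cell line, and nothing says that the replicates were separate cultures, so the spread between them may be technical.

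Small heat shock proteins are ATP-independent chaperones that share an alpha-crystallin domain, form oligomers and hold misfolding proteins until ATP-driven chaperones of the HSP70 family can refold them. HSF1 is the transcription factor that switches on heat shock genes when unfolded proteins build up in the cytosol. BAG3 links HSP70 to small heat shock proteins, above all HSPB8, and passes damaged proteins on to autophagy. Clusterin, encoded by CLU, is made in the secretory pathway and works as a chaperone mostly outside the cell.

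Values are TPM, a transcript level that is corrected for transcript length and scaled to a fixed total, so levels of different genes can be compared. Differences are log2(TPM + 1) after (R)-GNE-140 minus control, fitted with limma across the 10874 genes with a mean of at least 1 TPM, and a gene was called when its Benjamini-Hochberg adjusted p was below 0.05. The names were selected on earlier results from these control and treated values, above all the differences of CRYAB, HSPB1 and CLU. These differences are therefore given as descriptions, with standard errors (SE) but no p-values, and a call of a member says only which side of the threshold it fell on and supports nothing. In bulk RNA, more cells with a transcript and more of the transcript per cell cannot be told apart.

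Of the 8 genes with a row, 7 passed the filter and 4 of these were called. CRYAB, HSPB1 and BAG3 rose and CLU fell, while HSPB6, HSPB8 and HSF1 were not called and HSPB2 lay below the filter. Over all tested genes 3.03% were called, 1.31% as higher and 1.72% as lower. HSPB2, which was not tested, had every treated library above the controls. Among the tested members, the treated libraries lay wholly above the controls for CRYAB, HSPB1 and BAG3 and wholly below them for CLU. Over all tested genes, 11.2% lay wholly above and 11.8% wholly below. The median difference of the 7 tested members was 0.184, beside 0.00403 over all tested genes.

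CRYAB (ENSCAFG00845001876), or alpha-B-crystallin, is a lens protein that is also a stress-inducible chaperone of muscle and many tumours. It was at 71.34, 69.37 and 75.07 TPM in control replicates 1, 2 and 3, and at 200.50, 157.25 and 135.05 TPM in treated replicates 1, 2 and 3. The controls were tightly grouped and every treated library lay far above them, with a wide spread among the treated. The means were 71.9 ± 2.90 and 164 ± 33.3 TPM (SD, n = 3 each), a ratio of 2.28, and the log2 difference was 1.16 (SE 0.12). This difference ranked 17 from the top among the 10874 genes. It was 1.01 without treated replicate 1, the highest library, and 1.29 without treated replicate 3, the lowest treated one, and the call held in all 6 fits with a library left out.

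HSPB1 (ENSCAFG00845004436), also known as HSP27, binds misfolded proteins and actin filaments and is controlled by phosphorylation. It was at 44.36, 52.86 and 50.38 TPM in control libraries and at 116.02, 97.49 and 99.26 TPM in the treated libraries. The treated values were again all above the controls, and replicate 1 was the highest treated library, as for CRYAB. The means were 49.2 ± 4.37 and 104 ± 10.2 TPM (SD, n = 3 each), a ratio of 2.12. The log2 difference was 1.07 (SE 0.08), ranked 23 from the top, and it ran from 0.99 to 1.12 with a library left out, with the call kept in all 6 fits.

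HSPB2 (ENSCAFG00845001858), a muscle chaperone, lies next to CRYAB in the RefSeq gene order of the dog assembly UU_Cfam_GSD_1.0. In human and mouse these genes are arranged head to head. It was at 0.31, 0.30 and 0.32 TPM in control libraries and at 0.42, 0.40 and 0.43 TPM after treatment. The treated values lay above the controls, but all 6 were below the level of 1 TPM used as the filter. With no filter on low values its log2 difference was 0.11 (SE 0.05) and it was not called. Other genes near CRYAB in the RefSeq order, chosen after their values were seen, were not called. DLAT, a pyruvate dehydrogenase subunit, was at 61.8 and 57.3 TPM in controls and treated cells, and ALG9, an N-glycosylation enzyme, was at 10.8 and 10.9 TPM.

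HSPB6 (ENSCAFG00845001363), or HSP20, is best known from smooth and heart muscle. It was at 53.55, 38.58 and 48.21 TPM in control libraries and at 57.47, 43.73 and 58.61 TPM after treatment. The groups overlapped, and replicate 2 was the lowest library in both. The log2 difference was 0.18 (SE 0.13, 95% interval -0.12 to 0.49), and it ran from 0.05 to 0.32 with a library left out. HSPB8 (ENSCAFG00845028809), the partner of BAG3, was at 23.78, 25.48 and 29.62 TPM in control libraries and at 30.68, 25.51 and 29.28 TPM after treatment. Its groups overlapped almost fully, with a log2 difference of 0.11 (SE 0.10, 95% interval -0.10 to 0.33).

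**Figure D1:**
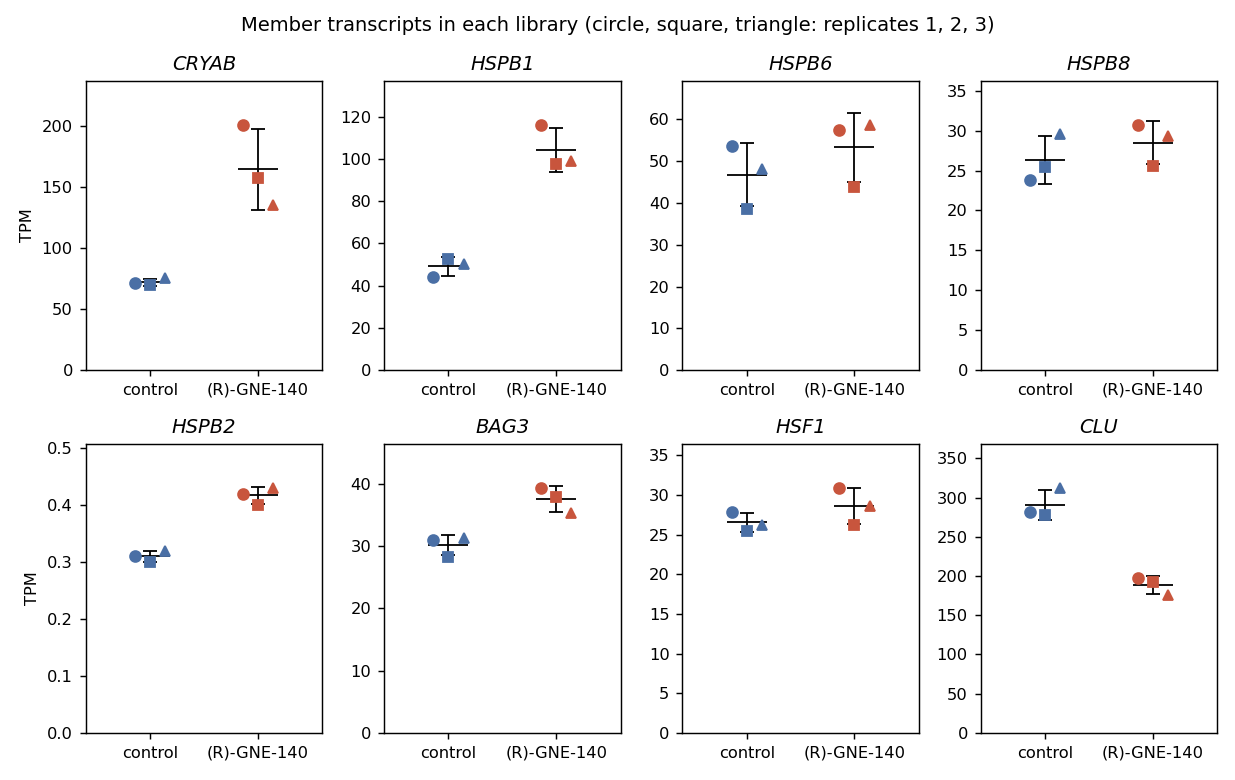
TPM of the 8 genes with a row, in panels with their own linear axis from 0, for controls (blue) and (R)-GNE-140 (red). Symbols are replicates 1 to 3, the bar is the mean and the whiskers are the SD (n = 3 each). CRYAB and HSPB1 reach 135 to 201 and 97.5 to 116 TPM in treated cells, CLU falls to between 175 and 197 TPM, and HSPB6, HSPB8 and HSF1 overlap between groups.

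Levels were also summed over CRYAB, HSPB1, HSPB2, HSPB6 and HSPB8, and other small heat shock proteins are not in this sum. The larger shares of CRYAB and HSPB1 in treated cells follow from the differences given above and add no separate result. The 5 genes came to 193, 187 and 204 TPM in the controls and to 405, 324 and 323 TPM in the treated libraries. The sum was 195 ± 8.56 and 351 ± 47.1 TPM (SD, n = 3 each), a ratio of 1.80. CRYAB held 37.0% ± 0.171 of it in controls and 46.6% ± 4.15 in treated cells, and HSPB1 25.3% ± 2.74 and 29.8% ± 1.08. The share of HSPB6 was 24.0% ± 3.52 in controls and 15.3% ± 2.53 in treated cells, and that of HSPB8 was 13.5% ± 1.13 and 8.17% ± 0.796, although the mean TPM of neither was lower. HSPB2 held 0.159% ± 0.00195 in controls and 0.120% ± 0.0151 in treated cells. CRYAB and HSPB1 kept nearly the same proportion to each other, with 1.47 ± 0.149 TPM of CRYAB per TPM of HSPB1 in controls and 1.57 ± 0.188 in treated cells.

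**Figure D2:**
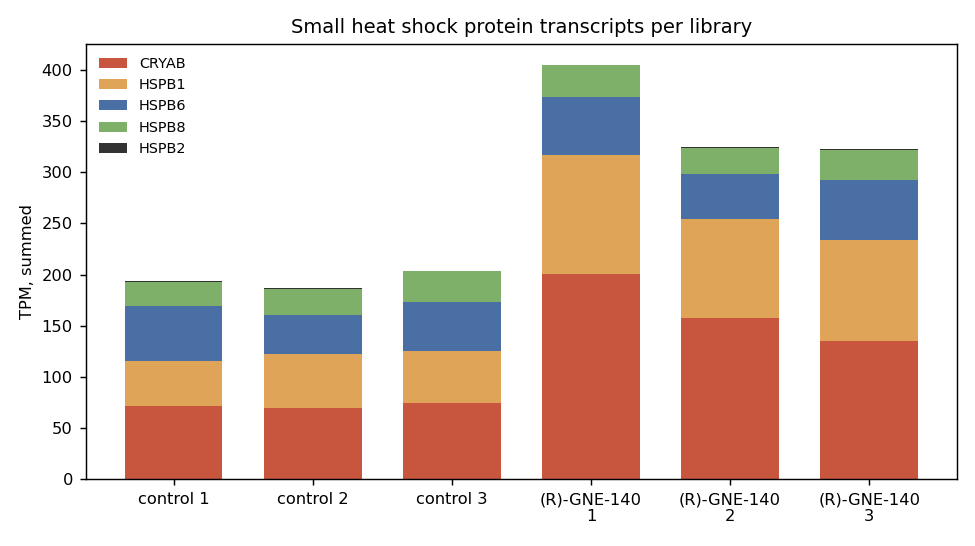
Stacked bars of TPM in each of the 6 libraries for CRYAB, HSPB1, HSPB6, HSPB8 and HSPB2, on a linear axis from 0, with no error bars since each bar is 1 library. The controls reach 187 to 204 TPM and the treated libraries 323 to 405 TPM, and most of the added height is CRYAB and HSPB1.

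BAG3 (ENSCAFG00845016933) was at 30.95, 28.23 and 31.23 TPM in control libraries and at 39.33, 37.92 and 35.31 TPM in the treated libraries. The groups did not overlap, and the gap between the lowest treated and the highest control library was small beside that of CRYAB or HSPB1. The means were 30.1 ± 1.66 and 37.5 ± 2.04 TPM (SD, n = 3 each), a log2 difference of 0.31 (SE 0.07). BAG3 was called with all 6 libraries, but not in any of the 6 fits that left out 1 library, where the difference ran from 0.26 to 0.35. It was not called either without the filter on low values, without the variance trend or with a replicate block. Its partner HSPB8 was at 0.873 ± 0.0936 TPM per TPM of BAG3 in controls and at 0.761 ± 0.0800 in treated cells.

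HSF1 (ENSCAFG00845009443) was at 27.92, 25.48 and 26.25 TPM in control libraries and at 30.91, 26.27 and 28.66 TPM after treatment. The groups overlapped, with a log2 difference of 0.10 (SE 0.07, 95% interval -0.06 to 0.27). HSF1 is controlled mainly through the protein, so its transcript level does not report its activity.

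CLU (ENSCAFG00845010565) was the most abundant gene of the group and the one that fell. It was at 281.82, 277.67 and 312.44 TPM in control libraries and at 197.38, 192.28 and 175.47 TPM in the treated libraries. Every treated library was well below every control. The means were 291 ± 19.0 and 188 ± 11.5 TPM (SD, n = 3 each), a ratio of 0.648, and the log2 difference was -0.62 (SE 0.06), ranked 57 from the bottom. It ran from -0.66 to -0.57 with a library left out and was called in all 6 fits. In controls there were 4.04 ± 0.110 TPM of CLU per TPM of CRYAB, and in treated cells 1.17 ± 0.164.

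Ordered by level, control cells had CLU, then CRYAB, then HSPB1 and HSPB6, whose ranges overlapped, then BAG3, HSF1 and HSPB8, and last HSPB2. The range of HSPB8 overlapped those of both BAG3 and HSF1. In treated cells the order of the means was the same, but the ranges of CLU and CRYAB now overlapped and those of HSPB1 and HSPB6 no longer did. HSF1 and HSPB8 overlapped there as well.

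**Figure D3:**
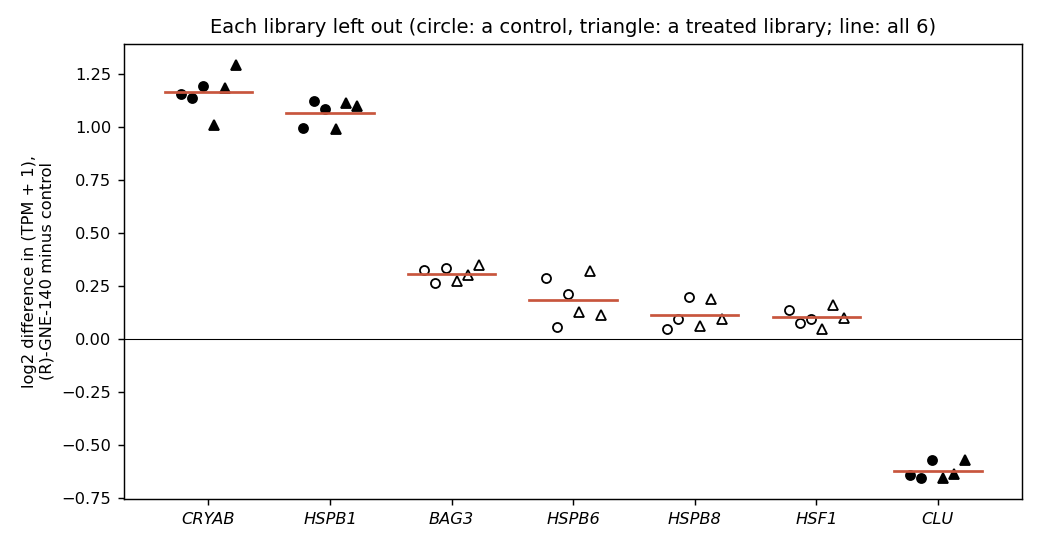
Log2 difference in TPM + 1, (R)-GNE-140 minus control, for the 7 tested genes with all 6 libraries (red line) and with each library left out (circles for a control, triangles for a treated library, filled where the adjusted p stayed below 0.05). CRYAB, HSPB1 and CLU stay called in all 6, and BAG3 in none although its values run only from 0.26 to 0.35.

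Genes that work with these chaperones were read from the same fit. Their lists were drawn up by function, but with earlier results of these data known. The p-values and calls of list genes are therefore descriptions and no independent support. No call was made among the other cytosolic chaperones driven by HSF1. Of 21 such genes, 17 were tested, and 0 rose and 0 fell (limma with Benjamini-Hochberg adjustment), with 0 in either direction at an unadjusted p below 0.05. Their differences ran from -0.12 to 0.14 with a median of -0.0239. Over all tested genes 17.9% had such an unadjusted p. Among those with the smallest p were UBB, a polyubiquitin gene (1098 and 1207 TPM in controls and treated cells, limma adjusted p = 0.281), FKBP4, an HSP90 co-chaperone (297 and 277 TPM, limma adjusted p = 0.325), and DNAJB1. DNAJB1, the HSP40 that feeds clients to HSP70 and a sensitive heat shock gene, was at 52.42, 49.97 and 52.62 TPM in control libraries and at 50.32, 44.18 and 47.83 TPM in the treated libraries (log2 -0.12, SE 0.06, limma adjusted p = 0.347). Its groups overlapped. The heat-inducible HSP70 genes HSPA1A and HSPA1B had no row under those names and are not analysed here. Of the HSF1 relatives and regulators, HSF2 was at 18.6 and 16.8 TPM (limma adjusted p = 0.309) and HSBP1, a small HSF1-binding protein, at 56.7 and 55.0 TPM (limma adjusted p = 0.771). Of the other small heat shock proteins, CRYAA and ODF1 were listed at 0 in all 6 libraries and HSPB7 was at 0.05 TPM or less. HSPB3 and HSPB9 had no row under those names, so their levels are unknown.

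Among the other BAG proteins, 1 of 4 tested rose and 0 fell. The shares over all tested genes were 1.31% and 1.72%. BAG2, which restrains ubiquitination of HSP70 clients, was at 3.79, 4.89 and 3.36 TPM in control libraries and at 6.79, 6.35 and 6.69 TPM in the treated libraries. The treated values lay above the controls at a low level, and the log2 difference was 0.61 (SE 0.12, limma adjusted p = 0.0361). Leaving out 1 library at a time, BAG2 was still called in 1 of 6 fits.

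Chaperone-assisted selective autophagy is the route by which BAG3 and HSPB8 clear damaged proteins. Of its 11 tested genes, 2 rose and 0 fell, beside 1.31% and 1.72% over all tested genes. Both genes that rose encode cargo receptors that bring ubiquitinated proteins to the autophagosome. SQSTM1, or p62, was at 398.28, 366.85 and 391.62 TPM in control libraries and at 514.28, 438.70 and 464.16 TPM in treated cells (log2 0.29, SE 0.06, limma adjusted p = 0.0421). NBR1 was at 33.36, 32.38 and 34.08 TPM in control libraries and at 41.52, 38.25 and 40.40 TPM in treated cells (log2 0.26, SE 0.06, limma adjusted p = 0.0480). For both the groups did not overlap and treated replicate 1 was the highest, and neither was called in any of the 6 fits that left out 1 library. The list held 5 differences above 0 and 6 below, with a median of -0.0114. At an unadjusted limma p below 0.05, 3 were higher and 2 lower, beside 17.9% of all tested genes. The 2 lower genes were FLNA, at 471 and 410 TPM (limma adjusted p = 0.126), and SYNPO, at 74.2 and 67.3 TPM (limma adjusted p = 0.217). Their treated libraries lay wholly below the controls.

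Of 9 tested kinases and phosphatases that act on small heat shock proteins, 0 rose and 0 fell by limma. At an unadjusted p below 0.05, 1 was higher, beside 17.9% of all tested genes. It was the protein kinase D gene PRKD2 (7.44 and 9.31 TPM, limma adjusted p = 0.152). The list median was -0.00893. MAPKAPK2, the main kinase of HSPB1 and named outside the rule after its values were seen, was at 26.7 and 27.3 TPM. Of 4 tested cytoskeletal genes whose proteins these chaperones protect, 0 rose and 0 fell, with 0 at an unadjusted p below 0.05. VIM, the vimentin gene, was at 5311 and 5272 TPM (limma adjusted p = 0.952).

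Of 7 tested receptors and partners of clusterin, 0 rose and 0 fell by limma. At an unadjusted p below 0.05, 2 were higher and 1 lower, beside 17.9% of all tested genes. The 2 higher genes were LRP1, an endocytic receptor, at 1.05 and 1.81 TPM (limma adjusted p = 0.150), and SRPX, at 5.14 and 6.42 TPM (limma adjusted p = 0.166). The lower gene was LRP8, a lipoprotein receptor that binds clusterin, at 15.2 and 12.7 TPM (limma adjusted p = 0.162). The related VLDLR had a log2 difference of 0.29 and did not reach that unadjusted p (limma adjusted p = 0.358). HSPB11 itself is known as a subunit of the intraflagellar transport complex B, which builds cilia, and 14 of its partner subunits were tested. Of these 0 rose and 0 fell by limma, and the median was 0.111. At an unadjusted p below 0.05, 4 were higher, beside the same 17.9% of all tested genes. Those 4 were CLUAP1, IFT81, IFT20 and IFT46, with log2 differences of 0.36, 0.40, 0.24 and 0.14.

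**Figure D4:**
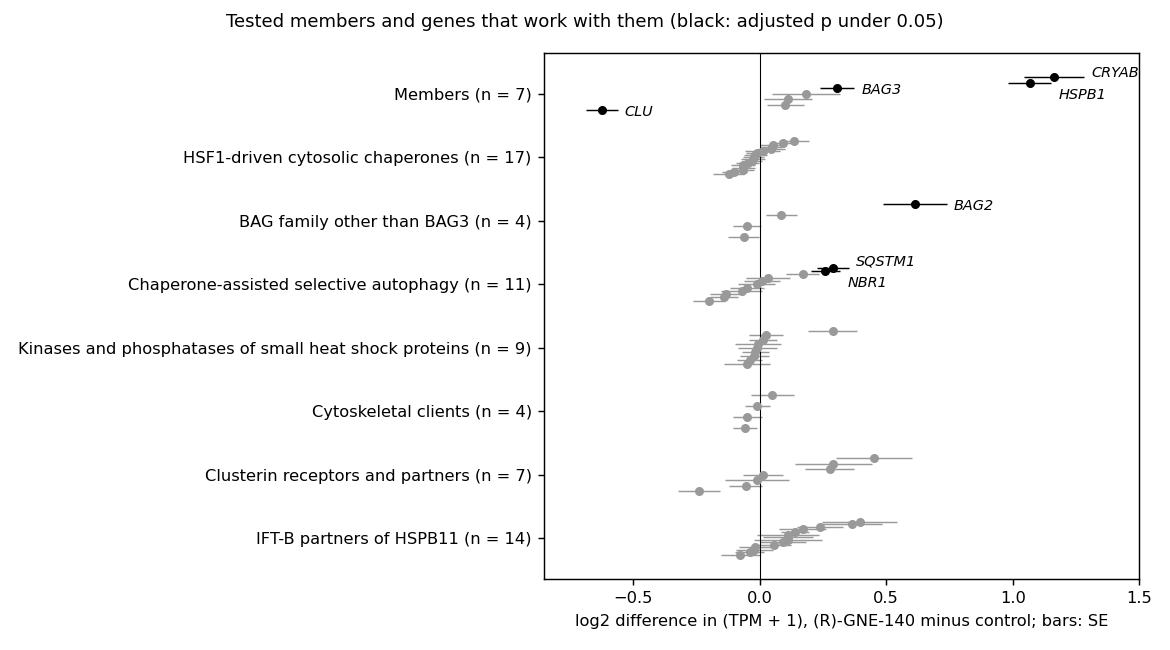
Log2 difference in TPM + 1, (R)-GNE-140 minus control, for each tested member and each tested gene of 7 functional lists, with SE bars; black genes had an adjusted p below 0.05. The 17 HSF1-driven cytosolic chaperones lie between -0.12 and 0.14, while CRYAB and HSPB1 are at 1.16 and 1.07 and CLU is at -0.62.

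Genes with the most similar pattern were sought for each called member among 8772 genes with a mean of at least 5 TPM, by Pearson's r of log2(TPM + 1) over the 6 libraries. Because the libraries form 2 groups, r mostly follows the group difference and is given as a description. It takes no account of the size of that difference. For CRYAB they were SH3BGRL3 (r = 0.994), PRR13 (0.993), RNASEK (0.990), CRIP1 (0.989) and GSPT1 (0.989). Of these, GSPT1 hardly differed, at 283 and 298 TPM in controls and treated cells (log2 0.07), and was not called. For HSPB1 they were ZFYVE1 (r = 0.998), RGS16, RNF19B, ARSA and CHAC1 (0.994), a glutathione-degrading enzyme. RGS16 was not called. For BAG3 they were RPS19 (r = 0.995), GAB2, REPIN1, CHMP2A and MNDA (0.986), of which GAB2, REPIN1 and MNDA were not called. For CLU they were UGGT2 (r = 0.997), EMB (0.996), HSP90B1 (0.995), RCN1 (0.994) and SCARA3 (0.994). UGGT2, HSP90B1 and RCN1 encode proteins of the endoplasmic reticulum. Whether such genes were more frequent here than over all genes was not tested. UGGT2, a folding-sensor enzyme, was at 10.95 and 8.07 TPM in controls and treated cells, and RCN1, a calcium-binding protein, at 289 and 224 TPM. HSP90B1, the HSP90 of the endoplasmic reticulum, was at 557 and 453 TPM, EMB at 290 and 230 TPM and SCARA3 at 7.23 and 4.70 TPM. With a library left out, UGGT2 was called in 0 of 6 fits, SCARA3 in 1, HSP90B1 in 5, and EMB and RCN1 in all 6. Within the group, r of CRYAB over the 6 libraries was 0.976 with HSPB1, 0.970 with BAG3 and -0.886 with CLU. For HSPB1 with CLU it was -0.9365, and for HSPB6 with HSF1 0.875. HSPB6 and HSF1 overlapped between groups, and for both replicate 2 was the lowest library of each group. Replicate 2 also had the lowest library-wide scaling factor, the median ratio of its genes to their geometric mean over the libraries. It was 0.984 beside 1.01 in the other controls, and 0.967 beside 1.02 in the other treated libraries.

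Facts of the whole series bear on these values as follows. Between 10755 and 10970 genes reached 1 TPM in a library, and libraries correlated across genes at r = 0.990 to 0.993 within groups and 0.987 to 0.991 between them, where genes are not independent replicates. Of 12 endothelial markers 11 were tested and 0 were called. At an unadjusted limma p below 0.05, 1 was higher and 4 were lower, beside 17.9% of all tested genes. The summed level of the 12 was 1552 to 1805 TPM in controls and lower, at 1405 to 1520 TPM, in treated cells, without overlap. The most abundant of them was CLDN5, at 758 and 625 TPM in controls and treated cells. Of the 11 tested, 4 lay wholly below the controls and 1, FLT1, wholly above. CDH5, KDR, TEK, TIE1, ENG and ERG overlapped between groups. Over all tested genes, 11.8% lay wholly below and 11.2% wholly above. VWF, the von Willebrand factor gene of mature endothelium, was near 0 at 0.0833 and 0.0867 TPM. Striated muscle markers, which matter because CRYAB, HSPB2 and HSPB6 are abundant in muscle, summed to 0.49 to 0.73 TPM in controls and 0.38 to 0.58 TPM in treated cells over 9 genes, with MYOD1, MYOG, MYH2 and TNNT3 at 0 in all 6 libraries. Fibroblast and mural markers summed to 5.60 to 7.02 TPM in controls and 7.80 to 10.7 TPM in treated cells over 8 genes, with RGS5 at 0. Haematopoietic markers summed to at most 5.74 TPM in controls and to 6.51 to 7.38 TPM in treated cells over 6 genes, most of it CD14, with CD3E at 0. Epithelial markers summed to at most 0.26 TPM over the 3 with a row, with CDH1 at 0. The part of the endothelial, fibroblast and haematopoietic differences in the results above was not tested.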

How the data were processed

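The deposited values are TPM, which the authors scaled to the same total in each library and rounded to 2 decimals. STAR, RSEM and edgeR 3.42.0 are named in the submitters' processing notes, with order and settings not given in the sources used here, nor the genome build, so no coordinates are printed. Rows were named by the table's first column, and identifiers came from a separate list of symbols in the same table. TPM keeps no depth, so the depth is unknown, no counting interval is given and precision is judged from the spread between 3 libraries a group. The test was limma 3.58.1 (R 4.3.3), run on log2(TPM + 1) for rows averaging 1 TPM or more, with a term for group alone, a mean-variance trend, 2-sided tests and Benjamini-Hochberg adjustment over all genes. This scale understates changes of low genes. An exact permutation test of 3 against 3 libraries cannot go below p = 0.1. The limma step was tested on simulated data.

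The members and lists were chosen with earlier results of these data known. Named genes were all 9 members, every called gene of a list or else up to 4 with the smallest p, and the 5 most similar genes of each called member. One gene picked by this rule is not reported here. The alternatives changed the pseudocount (0.1 and 5), filter (none, or 5 TPM), scaling, the variance model, a replicate block, repeated rows and each library left out. Near-identical gene copies can share reads in RSEM estimates. Figures were drawn with matplotlib 3.10.9.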

Additional observations from a re-analysis of the deposited data

How the results depend on the processing

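CRYAB, HSPB1 and CLU kept their direction and their call in all 16 alternatives, over log2 differences of 1.01 to 1.29, 0.99 to 1.12 and -0.66 to -0.57. HSPB6, HSPB8 and HSF1 kept their direction and were called in none. BAG3 lost its call, at a difference of 0.31, without the filter on low values, without the variance trend and with the replicate block. It lost it in all 6 fits with a library left out, over 0.26 to 0.35, which have fewer samples. The number of members called was 3 or 4 of those tested throughout. The 329 genes called over the whole table became 168 without the filter, 159 without the variance trend and 163 with the replicate block, and 74 to 185 with a library left out. Without the variance trend 57.9% of called genes were higher, against 43.2% in the reported fit. The same share was 55.4% without control replicate 1 and 33.0% without control replicate 2. Same-numbered libraries did not deviate together (correlations of 0.0359, 0.00927 and -0.0977 for replicates 1, 2 and 3), so the numbers are not taken to pair the samples. The depth behind TPM is unknown, which limits HSPB2 and the other genes below 1 TPM most.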
